A study of Mus musculus with 4 samples.

Results

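Cav2 and Bambi encode 2 membrane proteins that regulate signalling, and they are 2 of 45 genes that carry a name on the arrays of a study of brown preadipocytes lacking the prostaglandin E2 receptor EP3. The arrays hold 60691 distinct probes in all. Each gene was read through 1 probe spotted 10 times per array, A_51_P279552 for Cav2 and A_51_P248819 for Bambi, and 9 spots of each were free of outlier flags in all signals. Both genes were chosen from these same arrays, for values of m6A ratio and RNA level that lay lower without EP3, so the differences below are a description and carry no test.

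The EP3 cKO sample came from mice labelled Myf5CreEP3F/F, in which Cre recombinase is driven by Myf5, a gene of the muscle and brown fat lineage, and both EP3 alleles are floxed; its sample titles read EP3-/-. The control sample came from EP3F/F mice, which carry the same floxed alleles and, by their label, no Cre. All samples are labelled brown preadipocytes of mice aged 8 weeks, sorted as lineage-negative cells with CD29, CD34 and Sca1 on the surface, and each genotype is 1 sample pooled from approximately 30 mice. The IP samples are labelled male, and in the Sup samples that field holds the name of the fraction.

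RNA was divided by immunoprecipitation of N6-methyladenosine (m6A), a modified adenosine found within messenger RNAs. Antibody-bound RNA (IP) carried Cy5, unbound RNA from the supernatant (Sup) carried Cy3, and the fractions of a genotype shared 1 array. With 1 array per genotype there is no replicate check of any difference, and that number sets the limit of precision. The SD given throughout is that between repeated spots of 1 probe, a technical spread on 1 array per genotype. Since cells were pooled in bulk, fewer cells that express a gene and less RNA per cell cannot be told apart. The EP3 gene Ptger3 and the sort markers have no named probe here (0 of 4 for the preadipocyte markers), so neither the genotype nor the cell type was checked by expression.

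Caveolin-2, the product of Cav2, is an integral membrane protein of caveolae, the small flask-shaped invaginations of the plasma membrane that are abundant in fat cells. It assembles with caveolin-1, which it needs to leave the Golgi apparatus, and caveolae gather receptors and signalling proteins at the cell surface. Bambi is a transmembrane protein that resembles the type I receptors of the TGF-beta family but lacks their kinase domain. It takes a place in receptor complexes and dampens signalling by TGF-beta, activin and BMP, which act on the commitment of cells to the fat lineage. m6A is laid on transcripts by a nuclear methyltransferase complex and read by proteins that influence splicing, decay and translation.

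Cav2 RNA was lower in EP3 cKO preadipocytes in both fractions, and by far more in the m6A-bound one. In cKO IP the 9 spots read 348 to 449 with a median of 391 (processed signal, an intensity in arbitrary units), against 1805 to 2009 with a median of 1898 in control IP. In cKO Sup they read 1012 to 1189 with a median of 1104, against 1764 to 2165 with a median of 1894 in control Sup. The highest cKO spot lay below the lowest control spot in each fraction, a separation of technical spots and not of replicate samples.

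The channels differ in overall brightness, so each was divided by its median over the usable probes, those clear of the background in all 4 signals by the scanner software's own test. That median was 413 in cKO IP, 474 in control IP, 411 in cKO Sup and 468 in control Sup. Scaled in this way, the Cav2 IP signal was 0.96 ± 0.07 times the channel median in cKO and 4.0 ± 0.13 times in control (SD, n = 9 spots each). The Sup signal was 2.68 ± 0.11 times the median in cKO and 4.09 ± 0.24 times in control. The log2 difference, cKO minus control, was -2.06 ± 0.12 in IP, 4.17-fold lower, and -0.61 ± 0.06 in Sup, 1.52-fold lower (SD, n = 9 spots). In cKO, 24.0% of the control's scaled Cav2 signal was left in IP and 65.6% in Sup.

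The balance of Cav2 RNA between the fractions therefore differed between the genotypes. The m6A ratio, log2(IP/Sup), was -1.49 ± 0.13 in cKO, with spots between -1.68 and -1.26, against -0.03 ± 0.11 in control, with spots between -0.25 and 0.08 (SD, n = 9 spots each). The difference of the ratios was -1.45 ± 0.13, a 2.74-fold lower ratio, and the spots ran from -1.65 to -1.27. Expressed as the share of IP in the summed scaled signal, Cav2 stood at 26.3% ± 1.78 in cKO and 49.4% ± 1.84 in control. This share is relative to the median probe, which scaling places near equal IP and Sup, and is not a fraction of methylated molecules.

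Abundance, log2(IP + Sup) of the scaled signals, serves as an approximation of a gene's total RNA. For Cav2 the cKO spots lay between 1.80 and 1.94 and the control spots between 2.95 and 3.09, and the difference was -1.15 ± 0.05 (SD, n = 9 spots), 2.22-fold lower. The summed scaled signal was 3.64 in cKO and 8.08 in control, and 68.4% of the gap was in the IP fraction. This split weighs the fractions by their channel medians and not by amounts of RNA.

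Bambi RNA was also lower in EP3 cKO preadipocytes, and by more in the m6A-bound fraction. In cKO IP the 9 spots read 1193 to 1419 with a median of 1336, against 2973 to 3144 with a median of 3075 in control IP. In cKO Sup they read 1025 to 1144 with a median of 1055, against 1342 to 1541 with a median of 1403 in control Sup. The repeated spots of the genotypes did not overlap in either fraction, though in Sup they lay far closer together than in IP. This separation is between technical spots before scaling and does not measure the spread between samples of a genotype. In the background-subtracted signals given further below, the Bambi spots of the genotypes overlapped in Sup.

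After scaling, the Bambi IP signal was 3.20 ± 0.16 times the channel median in cKO and 6.47 ± 0.11 times in control (SD, n = 9 spots each). The Sup signal was 2.59 ± 0.09 times the median in cKO and 2.99 ± 0.13 times in control. These gave log2 differences of -1.02 ± 0.06 in IP, 2.03-fold lower, and -0.21 ± 0.03 in Sup, 1.15-fold lower (SD, n = 9 spots). In cKO, 49.3% of the control's scaled signal was left in IP and 86.7% in Sup.

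Relative to the channel medians, Bambi had more signal in IP than in Sup in both genotypes, with a smaller excess in cKO. Its m6A ratio was 0.30 ± 0.06 in cKO, with spots between 0.20 and 0.38, against 1.11 ± 0.05 in control, with spots between 1.01 and 1.17 (SD, n = 9 spots each). The difference was -0.81 ± 0.06, a 1.76-fold lower ratio that falls short of 2-fold, with spots between -0.88 and -0.71. The share of IP in the summed scaled signal was 55.2% ± 1.06 in cKO and 68.4% ± 0.71 in control. Abundance differed by -0.71 ± 0.04 (SD, n = 9 spots), 1.64-fold lower in cKO. The summed scaled signal was 5.78 in cKO and 9.46 in control, and under this scaling 89.2% of the gap was in the IP fraction. As for Cav2, the split does not measure amounts of RNA and depends on the scaling. The log2 differences in IP and Sup were -1.53 and -0.24 with the authors' constants. With medians over ERCC probes, an alternative added after seeing the data, they were -0.45 and -0.27. Whether Bambi had more IP than Sup in cKO also varied with the constants. The authors' log2 values put IP below Sup in cKO (-1.87 against -1.30) and above it in control (-0.34 against -1.07).

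**Figure D1:**
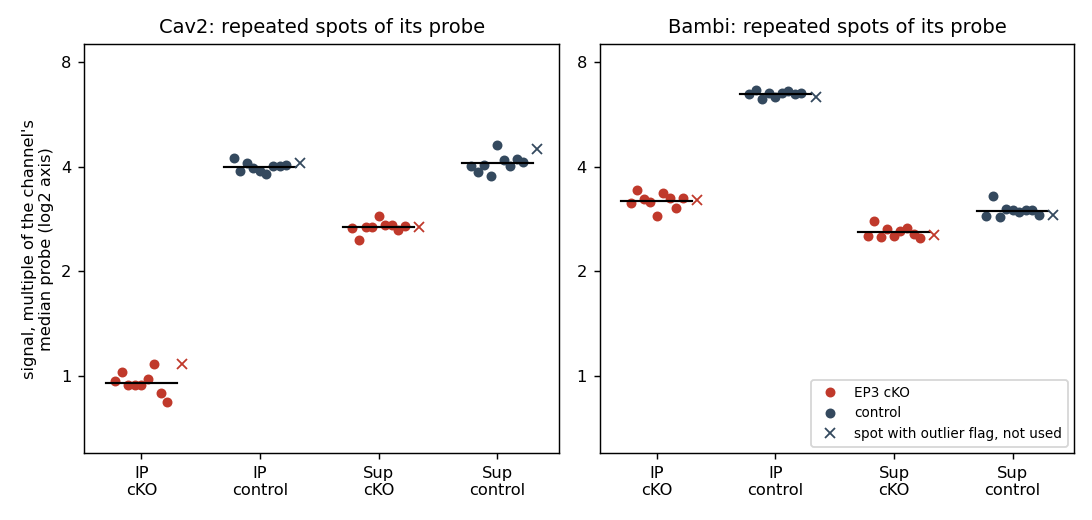
Scaled signal of every repeated spot of the Cav2 probe (left) and the Bambi probe (right), as a multiple of the channel's median probe on a log2 axis, for EP3 cKO and control in IP and Sup; lines are means on the log2 scale over 9 spots, and crosses are the spots left out for an outlier flag. The cKO spots lie below the control spots in each fraction, with the wider gap in IP for both genes.

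Both genes thus had IP reduced more than Sup, and Cav2 differed more between genotypes than Bambi in every measure. The spots of the m6A difference did not overlap between the genes, nor did those of the IP, Sup and abundance differences. At a 2-fold size, both genes were lower in IP, where 4.51% of the 43838 usable probes were lower by as much. Bambi is close to that size: its IP difference reached 2-fold in 9 of 13 other settings, with values between -1.53 and -0.45, while that of Cav2 did in all 13. Cav2 alone of the pair was so in the m6A ratio, against 3.29% of probes, and in abundance, against 1.87%. Neither was so in Sup, against 0.623%. Probes higher by 2-fold made up 1.99% in the m6A ratio, 3.37% in IP, 1.0% in Sup and 1.73% in abundance. These shares give the scale of the arrays, and since the genes were picked on the same contrasts, nothing is read from the counts.

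The spots with outlier flags gave similar values. The Cav2 spot left out was marked as a population outlier in cKO Sup, and its m6A difference was -1.18 and its abundance difference -1.19. The Bambi spot left out was marked in control Sup, and its m6A difference was -0.80 and its abundance difference -0.69. For Cav2 the m6A difference of that spot lay above the range of the others, and for Bambi it lay within it.

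Each gene was then placed among the 1000 usable probes nearest to it in brightness, taken as the mean of log2(IP + Sup) over both arrays. These neighbours lay within 0.10 (log2) of Cav2 and 0.11 of Bambi. Their log2 differences centred near 0, with medians of 0.09 for the m6A ratio, 0.14 for IP, 0.03 for Sup and 0.07 for abundance around Cav2. Those around Bambi were 0.07, 0.13, 0.04 and 0.07 in the same order.

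Cav2 lay at the lower edge of its neighbours. For the m6A difference, 5 of 1000 neighbours (0.5%) were at or below Cav2, and their 5th percentile was -0.90. For the IP difference 4 neighbours were (0.4%), with a 5th percentile of -1.07. The Sup difference placed 29 neighbours at or below Cav2 (2.9%) and the abundance difference 20 (2.0%). By its m6A ratio Cav2 had 7.4% of neighbours at or below it in cKO and 51.8% in control, where it stood near their middle.

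Bambi lay in the lower part of its neighbours without being at the edge. For the m6A difference, 69 of 1000 neighbours (6.9%) were at or below Bambi, and their 5th percentile, -0.94, was lower than Bambi's value. For IP 5.9% were at or below it, for abundance 6.3% and for Sup 18.7%. Other comparison sets placed 4.28% to 6.6% at or below Bambi in IP and 4.4% to 10.6% in abundance. Whether Bambi fell within the lowest 5% in those measures thus depended on the set. Its m6A ratio had 62.9% of neighbours at or below it in cKO and 79.3% in control, so Bambi stayed among the probes with more IP than the median neighbour in both genotypes.

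**Figure D2:**
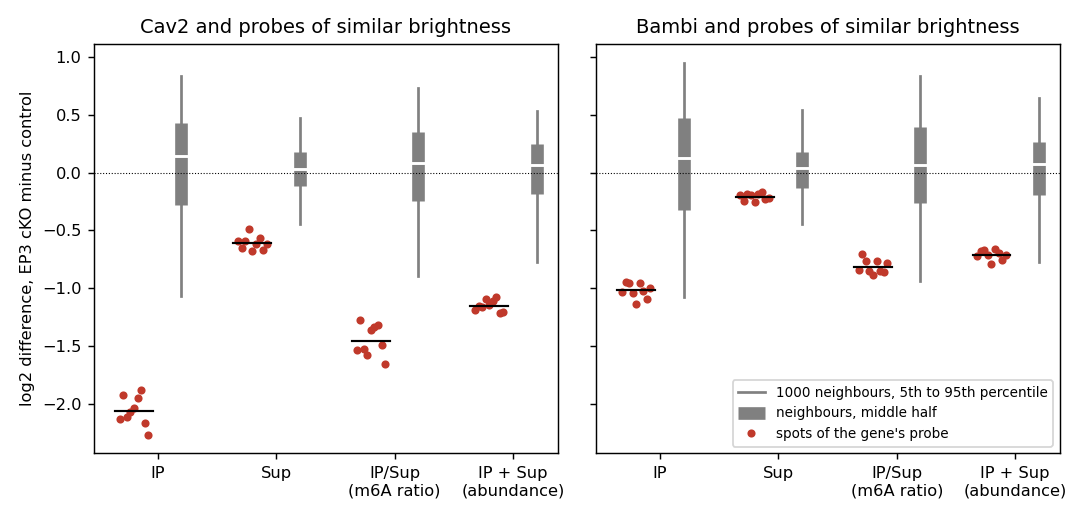
Log2 differences (EP3 cKO minus control) in IP, Sup, their ratio and their sum for Cav2 (left) and Bambi (right); points are 9 spots with their mean as a line, and grey bars show the 1000 usable probes nearest in brightness (thin: 5th to 95th percentile; thick: 25th to 75th percentile; white tick: median). Cav2 lies below the 5th percentile of its neighbours in all 4 measures, and Bambi lies above it in all 4.

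The combination of a lower ratio and a lower level was also counted. Among the neighbours of Cav2, 2 of 1000 had m6A and abundance differences both at or below those of Cav2, as had 57 of the 43838 usable probes (0.13%). For Bambi these counts were 27 of 1000 and 865 of 43838 (1.97%). A lower abundance mostly came with a lower ratio. Of the 20 neighbours at least as low as Cav2 in abundance, 19 had an m6A difference below 0. Of the 63 as low as Bambi, 58 had. Over all 1000 neighbours of each gene the median m6A difference was above 0, at 0.09 around Cav2 and 0.07 around Bambi. Both measures share the same signals, and a dimmer IP alone lowers each of them. IP and Sup were both lower in cKO in 25.1% of the neighbours of either gene, and both higher in 40.6% around Cav2 and 41.1% around Bambi.

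The genes were also set among usable probes with nearly the same control ratio (within 0.1) and brightness (within 0.5), a comparison added after the values were seen. Of 332 such probes, 0 had an m6A difference at or below that of Cav2 and 1 an abundance difference at or below it (0.30%). For Bambi, 20 of 179 (11.2%) were at or below its m6A difference and 19 (10.6%) at or below its abundance difference. The middle of these probes stood at 0.01 around Cav2 and -0.05 around Bambi in the m6A difference.

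**Figure D3:**
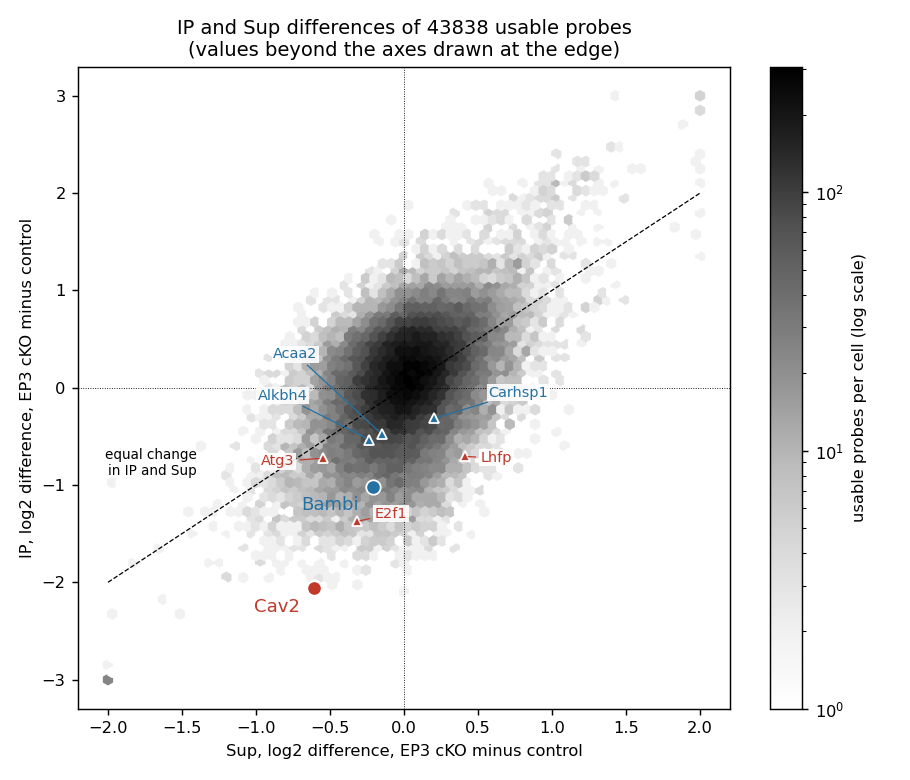
IP difference against Sup difference (log2, EP3 cKO minus control) for 43838 usable probes, with darker cells holding more probes, the dashed line marking equal change in both, and circles for Cav2 and Bambi; triangles of the same colour are the 3 named genes closest to each in pattern. Cav2, at -2.06 in IP and -0.61 in Sup, lies at the lower margin of the cloud, and Bambi, at -1.02 and -0.21, within it; both lie below the dashed line.

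Signals before dye normalisation, given here without scaling, showed the same order of sizes for Cav2. For Bambi in Sup they lay close together until set against the channel medians. The background-subtracted Cav2 signal was 106 ± 7.15 in cKO IP and 680 ± 21.7 in control IP, and 306 ± 8.51 in cKO Sup and 391 ± 11.5 in control Sup (SD, n = 9 spots each). For Bambi it was 351 ± 15.4 in cKO IP and 1100 ± 18.5 in control IP. In Sup the Bambi values were 297 ± 6.89 in cKO and 289 ± 5.99 in control, with overlapping spots. The median over spots of usable probes was 111 in cKO IP, 172 in control IP, 115 in cKO Sup and 96.2 in control Sup. The Sup channel was thus brighter in cKO at this step, and relative to its channel median Bambi was lower in cKO Sup than in control Sup. In the dye-normalised processed signals, from which the Sup difference of Bambi was taken, the log2 difference was -0.39 without scaling and -0.21 with it.

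All signals of both genes were well above background, and none was saturated. The dimmest was Cav2 in cKO IP, where the pixel median was 6.07 to 7.45 times that of the local background, against 32.3 to 39.7 times in control IP. In Sup it was 13.7 to 17.7 times in cKO and 16.8 to 19.3 times in control. For Bambi it was 17.8 to 22.1 times in cKO IP, 54.2 to 65.1 times in control IP, 14.7 to 16.6 times in cKO Sup and 12.8 to 15.7 times in control Sup. The scanner software modelled the error of a single spot at 10.3% of the signal on average for Cav2 in cKO IP, and at slightly less in every other signal of the pair.

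The spots of each probe were spread over the array, and the surroundings of each spot were examined within 20 rows and 20 columns. For Cav2, the median m6A difference of the 654 to 1201 surrounding spots ran from -0.02 to 0.15, and the Cav2 spots lay below their own surroundings by an average log2 difference of -1.49 ± 0.14 (SD, n = 9 spots). For Bambi, the surroundings held 771 to 1219 spots with medians from -0.03 to 0.08, and its spots differed from them by -0.85 ± 0.07. In abundance the corresponding differences were -1.20 ± 0.05 for Cav2 and -0.76 ± 0.05 for Bambi. Differences between regions of the array were therefore small beside those of either gene.

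Among the 41 named genes that were usable, Cav2 had the lowest value of the m6A, IP and abundance differences and ranked 3 from the lowest in Sup. Counted from the lowest, Bambi ranked 5 in the m6A difference, 3 in IP, 4 in abundance and 9 in Sup. Of the 41, Cav2 and Bambi included, 12 were lower in both fractions in cKO, 12 were lower in IP alone, 6 in Sup alone and 11 in neither. The median of the 41 was -0.15 for the m6A difference, against 0.04 over all usable probes, and -0.11 for abundance, against 0.05.

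The named gene closest in pattern to Cav2 was E2f1, a transcription factor gene of the cell cycle, at a Euclidean distance of 0.91 between log2 signals of the 4 samples after each gene's own mean was subtracted. E2f1 differed by -1.37 ± 0.13 in IP and -0.32 ± 0.15 in Sup (SD, n = 10 spots). Atg3, which encodes an enzyme of autophagosome formation, came next at 1.26, with -0.73 in IP and -0.55 in Sup. Lhfp followed at 1.46, with -0.71 in IP and, unlike Cav2, 0.41 in Sup. These were not close in absolute terms: 299 of 43837 usable probes (0.68%) were nearer to Cav2 than E2f1 was, and 5132 (11.7%) nearer than Lhfp.

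The named genes closest to Bambi lay at smaller distances from it than those of Cav2 did from Cav2. Alkbh4, of the family of AlkB demethylases, lay at a distance of 0.38, with -0.53 in IP and -0.23 in Sup. Acaa2, a thiolase of mitochondrial fatty acid oxidation, lay at 0.58, with -0.48 in IP and -0.15 in Sup. Carhsp1 lay at 0.60, with -0.32 in IP and, unlike Bambi, 0.21 in Sup. The IP difference of each was smaller in size than that of Bambi. Of the usable probes, 849 (1.94%) were nearer to Bambi than Alkbh4, a larger share than the 0.68% nearer to Cav2 than E2f1. By that share the counterparts of Bambi were not nearer. The distance between Cav2 and Bambi themselves was 1.67.

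The partners of both proteins carry no named probe on these arrays. Of 13 caveola genes listed, among them Cav1 and the cavins, 0 were named, as were 0 of 37 genes of TGF-beta, BMP and activin signalling, from ligands to receptors, Smads and targets, and 0 of 20 of Wnt signalling. A list of 7 other named genes for membrane proteins was drawn up with an earlier account of these data known, and is not complete. Duox1, Cpt1a and Pex11a were not on it, with m6A differences of -0.25, -0.13 and 0.57. Of the 7 listed, 6 were usable: H2-M2, H2-Q7, Lhfp, Olfr1307, Olfr166 and Tm9sf1. In the m6A difference their median was -0.51, 5 of the 6 lay below the median of all usable probes (0.04), and Lhfp (-1.12) was lower by at least 2-fold. In abundance their median was -0.05, against 0.05 over all usable probes, and their differences ran from -0.16 for Lhfp to 0.24 for Olfr166. Of the marker lists for mature fat, brown fat, endothelial, macrophage, muscle and nerve cells, the 1 gene with a named probe was Mbp of Schwann cells, with an abundance difference of 0.10. The part of other cell types in the values of Cav2 and Bambi was not tested.

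In the authors' deposited table, Cav2 stood at -3.58 in cKO IP, -1.03 in control IP, -1.25 in cKO Sup and -0.60 in control Sup, all log2 values. For Bambi the authors' deposited table gives -1.87 in cKO IP, -0.34 in control IP, -1.30 in cKO Sup and -1.07 in control Sup. The differences formed from the authors' deposited table were -1.90 in the m6A ratio for Cav2 and -1.29 for Bambi, larger in size than above. Its constants move the median m6A difference of all usable probes by -0.48.

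**Figure D4:**
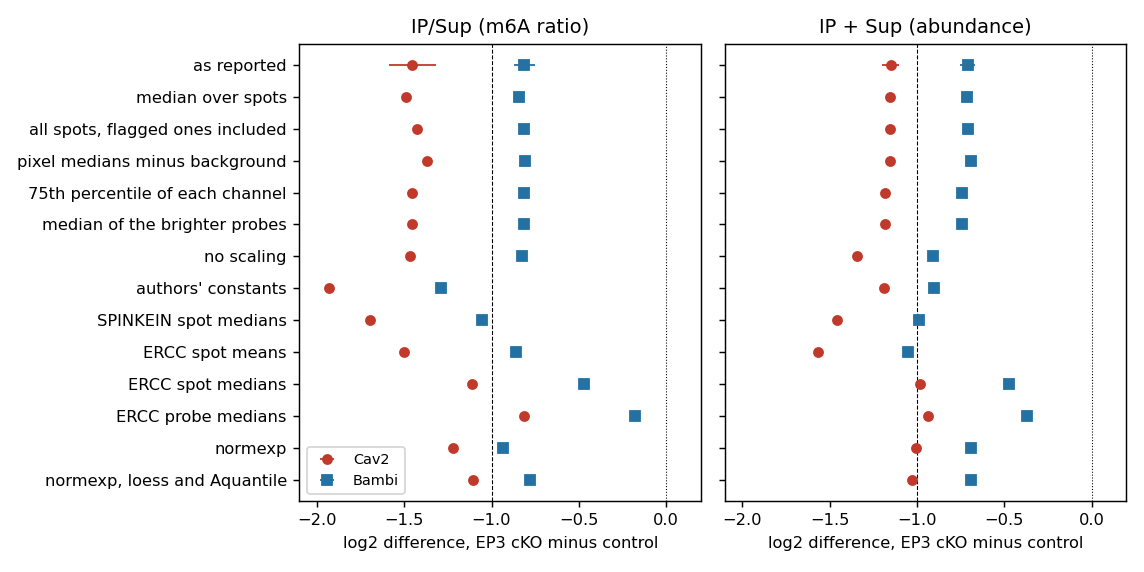
Log2 difference (EP3 cKO minus control) in the m6A ratio (left) and in abundance (right) of Cav2 and Bambi as reported and under 13 other ways of scaling, background correction and spot averaging; bars on the first row are the SD over 9 spots, the dashed line marks 2-fold lower and the dotted line no difference. Every point lies below 0, and Cav2 lies below Bambi in each setting.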

How the data were processed

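The members and gene lists were chosen with earlier results of these data known. Per the file headers, both arrays have the same scan time, and the signals come from Agilent Feature Extraction 11.0.1.1. The deposited processed signals are intensities on a linear scale, with background subtracted and dyes normalised within the array by the scanner software; pixel medians, background-subtracted signals and flags of 0 or 1 were deposited beside them. The authors' deposited table holds log2 values, equal to log2 of the processed signal minus 1 constant per column, of an origin that no source used here gives. Its column medians were -3.85 in cKO IP, -3.36 in control IP, -3.00 in cKO Sup and -2.97 in control Sup.

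Spots flagged as outliers in any signal were left out. A probe was usable when at least 0.5 of its spots were well above background in all 4 signals, as 43838 probes (72.2%) were; 76.3% of spots were so in cKO IP, 79.1% in control IP, 82.3% in cKO Sup and 80.8% in control Sup. Channels were scaled to the median usable probe and spots averaged on the log2 scale. Genes were named through accessions in the files, matched to RefSeq (GRCm38.p6): 45 of 50 matched. Named genes were the members, the 3 closest to each, and list members. The alternatives changed scaling, background correction, spot averaging, filter and neighbours, and used limma 3.58.1 in R 4.3.3, with Python 3.11.15, numpy 2.4.6 and pandas 2.3.3 elsewhere. The calculation was tested on simulated data.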

Additional observations from a re-analysis of the deposited data

How the results depend on the processing

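No paired analysis was possible because each genotype is 1 array. Directions held for Cav2 and Bambi in IP, Sup, m6A and abundance under all 13 alternatives. In the m6A difference the authors' constants gave -1.93 for Cav2 and -1.29 for Bambi, SPINKEIN spots -1.69 and -1.05, ERCC spot medians -1.11 and -0.47, and medians over 5 ERCC probes, an alternative added after seeing the data, -0.82 and -0.18, so Cav2 fell short of 2-fold there and Bambi passed it under the first pair. Normexp gave -1.22 and -0.94, and with loess and Aquantile Cav2 stood at -1.10. In abundance, no scaling gave -1.34 for Cav2 and -0.91 for Bambi, ERCC spot medians -0.98 and -0.47, ERCC spot means -1.57 and -1.05, ERCC probe medians -0.94 and -0.37, and SPINKEIN spots -1.46 and -0.99. The authors' constants gave -0.90 for Bambi, normexp -1.0 for Cav2, and loess with Aquantile -1.03 for Cav2. A scaling constant moves every probe alike in m6A, IP and Sup. Across windows, filters and corrections 0.4% to 1.3% of probes were at or below Cav2 in the m6A difference and 5.1% to 7.4% at or below Bambi. In the set of similar control ratio and brightness, added after the values were seen, these shares were 0.00% and 11.2%. Across the 13 alternatives the IP difference ran from -2.57 to -1.49 for Cav2 and from -1.53 to -0.45 for Bambi, and the Sup difference from -0.83 to -0.49 and from -0.42 to -0.11. The difference in the share of IP ran from -28.5 to -12.4 percentage points for Cav2 and from -22.0 to -2.98 for Bambi. Bambi in IP fell short of 2-fold with ERCC spot medians (-0.66), ERCC probe medians (-0.45), loess with Aquantile (-0.98) and, narrowly, pixel medians.

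Counts of probes past 2-fold varied with scaling, background correction and the filter on dim probes, and the ranges here also take in counts at 1.5-fold, which form the upper ends for Sup and abundance. For the m6A ratio, 872 higher and 1443 lower became 113 to 10481 and 125 to 5833. For IP, 1478 and 1979 became 495 to 10128 and 341 to 6650. For Sup, 439 and 273 became 114 to 1962 and 76 to 1400, and for abundance 758 and 819 became 367 to 2461 and 230 to 2970. The causes were not tested.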
